A study of Mus musculus with 11 samples.

Results

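Myod1 encodes MyoD, a basic helix-loop-helix transcription factor that commits cells to skeletal muscle. It was described here together with every MyoD, MyoG and H3K4me1 region that the authors called within 100 kb of its locus. The gene was taken by name and the regions by position: 1 gene of 20368 gene symbols, and 61 regions of 230671 in all 5 lists. Of these regions, 6 were MyoD peaks in myoblasts (of 18141), 20 were MyoD peaks in myotubes (of 39700) and 15 were MyoG peaks in myotubes (of 35380). H3K4me1, a histone mark of enhancers, gave 7 domains in myoblasts (of 66863) and 13 in myotubes (of 70587).

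The cells were C2C12, a mouse myoblast line with the strain given as C3H, which fuses into myotubes when serum is reduced. Chromatin immunoprecipitation with sequencing (ChIP-seq) was done in proliferating myoblasts in 10% fetal bovine serum and in myotubes after 48 h of differentiation in 2% horse serum with insulin, transferrin and selenium. PolyA RNA-seq was done at 4 h of differentiation in cells with RNAi against the RNA of the DRR, an enhancer of Myod1 (DRRi), with RNAi against GFP (GFPi), with DRR RNA overexpressed (pHAN_DRR1.2) or with GFP overexpressed (pHAN_GFP). Each of the 9 groups used held 1 library of the 1 cell line, so there was no replicate error, no test between groups was possible, and every difference below describes single libraries. The DRR RNA is no coding sequence and has no row in the expression tables, so its level was not checked here. The RNA and the ChIP-seq were collected at different times of differentiation.

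MyoD pairs with E proteins and binds DNA at the E-box, written CANNTG, and MyoG, its relative made later in differentiation, recognizes the same motif. Myod1 is known for control from far upstream. The distal regulatory region (DRR) lies about 5 kb before the gene start and acts mainly in differentiating muscle, and the core enhancer lies about 20 kb before it and serves the onset of expression in muscle precursors. Enhancers of this kind are transcribed into enhancer RNA, and the study asked what the DRR RNA does, with attention to Myog, which encodes MyoG. The distances of 5 kb and 20 kb are textbook values and not measurements of these files.

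To show the kind of site that both factors recognize, the 250 bases before the start of Myog, a direct target of MyoD, are given from RefSeq (GRCm38.p6, chromosome 1, 134289754 to 134290003, plus strand), with the E-boxes in capitals. Of the 4 MyoD family genes, 2 had an entry in the promoter table, Myog and Myf5, and Myod1 and Myf6 had none.
Myog, 250 bases before the start: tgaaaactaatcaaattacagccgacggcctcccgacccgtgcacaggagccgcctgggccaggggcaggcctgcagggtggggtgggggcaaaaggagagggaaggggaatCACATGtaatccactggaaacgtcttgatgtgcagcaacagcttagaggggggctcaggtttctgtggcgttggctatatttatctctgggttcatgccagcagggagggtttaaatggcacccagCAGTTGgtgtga
The stretch held 2 matches to CANNTG, a pattern that reads the same on both strands, at bases -138 to -133 and -12 to -7 from the start. Of 32851 stretches of this length in the table, 66.2% held at least 1 match and 31.8% held at least 2, so matches to this short motif are common. In the deposited lists, on mm9, a MyoD peak in myoblasts (score 92.2), a MyoD peak in myotubes (score 3100) and a MyoG peak (score 424.6) overlapped the first base of the Myog locus. An H3K4me1 domain covered it in myotubes (ChIP over control 3.98) and none in myoblasts.

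The Myod1 locus lies on chromosome 7 from 53631844 to 53634462 (mm9) and is 2619 bp long, the length that RefSeq gives for the gene. It is read towards higher coordinates, so upstream means lower ones, and distances below run from its first base to the midpoint of a region unless stated. The upstream neighbour in the expression tables is Otog, a gene of the inner ear matrix, whose locus ends 65.0 kb away. Downstream lie Kcnc1, a potassium channel gene 17.4 kb away, and Sergef, 64.1 kb away. RefSeq (GRCm38.p6) places a long noncoding RNA gene, Gm45923, between Otog and Myod1, which the tables of coding sequences do not list.

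Both MyoD lists put most of their sites upstream of the gene. In myoblasts all 6 MyoD peaks were upstream and the nearest ended 11.8 kb before the start. In myotubes 14 of the 20 MyoD peaks were upstream, 1 lay over the start and 5 lay downstream. Of the 15 MyoG peaks 13 were upstream, 1 lay over the start and 1 downstream. Joined by overlap of 1 bp or more, the 41 peaks made 20 sites over 127 kb: 14 outside every listed gene locus, 2 within Otog, 1 at Myod1 and 3 within Kcnc1.

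**Figure D1:**
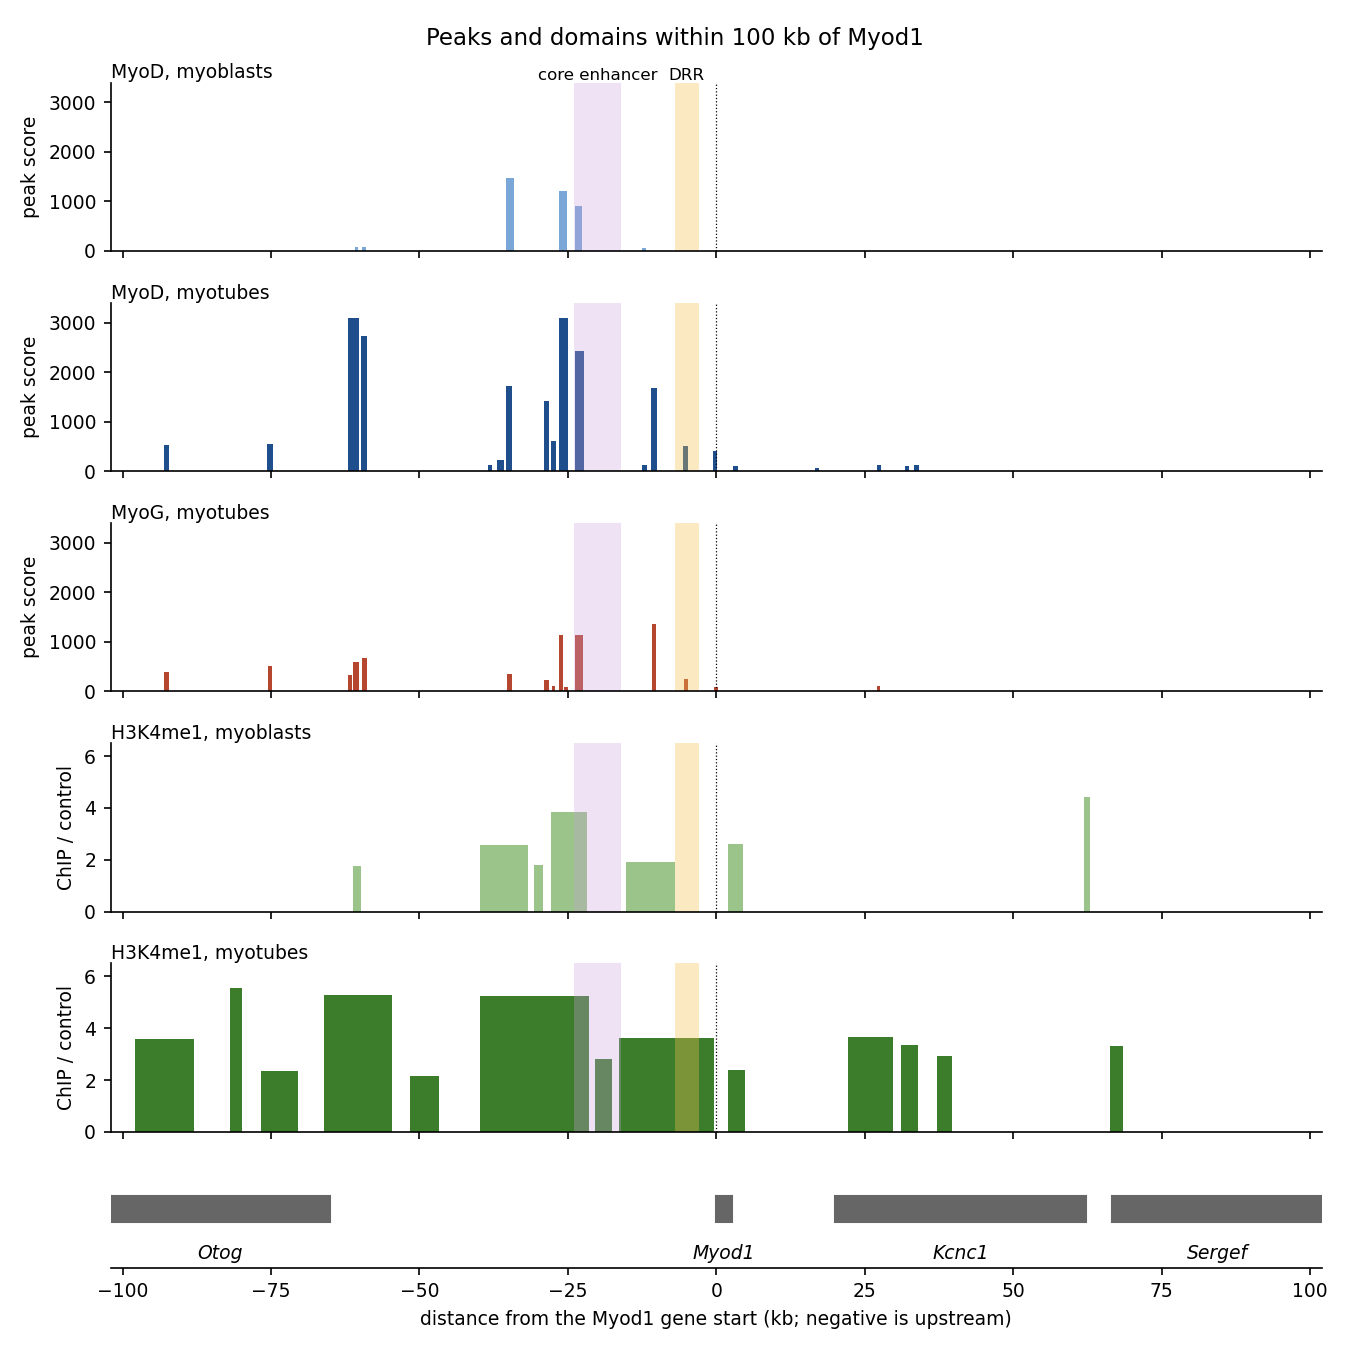
Regions called within 100 kb of Myod1 in each of the 5 lists, 1 library each, against distance from the gene start (kb). Bar height is the authors' peak score or their ChIP over control fold, bar width is the region's width with a minimum of 0.6 kb, shaded bands are the nominal core enhancer and DRR windows, and grey boxes are gene loci. Tall MyoD and MyoG bars stand upstream of the start, and the 5 downstream MyoD bars in myotubes are low.

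The authors' peak scores are read within each list only. In myoblasts the peak scores were 84.2, 78.0, 1473, 1218, 904 and 63.3 in order from far to near, at -60.6, -59.4, -34.8, -25.9, -23.2 and -12.1 kb. The 3 at -34.8, -25.9 and -23.2 kb were the strong ones: 5.32%, 7.26% and 10.6% of the whole myoblast list scored as high. The other 3 lay near the lowest score of the list, 60, and under its median of 162.

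In myotubes the MyoD peaks at -61.1 and -25.8 kb both carried a score of exactly 3100, which 505 peaks of this list share, and 1.41% of the list scored as high or higher. Those at -59.3 kb (score 2722) and -23.1 kb (2435) came next. Scores of 1712 at -34.9 kb, 1673 at -10.5 kb and 1422 at -28.6 kb completed the 7 that stood above 1000. Of the 20 peaks, 13 scored above the list median of 175. The 5 downstream peaks scored between 62.5 and 131, all under that median.

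Every MyoD peak of myoblasts overlapped one of myotubes, 6 of 6, against 73.9% of the whole myoblast list. In the other direction 6 of 20 myotube peaks overlapped a myoblast peak (30.0%), against 34.1% of the whole myotube list. With scores of 100 or more in both lists, an alternative chosen after seeing the data, 3 of 19 did (15.8%), against 33.5%, since the myoblast peaks near -60 kb and at -12.1 kb score under 100. The 14 added sites included the one at -10.5 kb, the one at -5.23 kb, the one over the gene start and all 5 downstream. The pair near -60 kb stood in the low range of the myoblast list and in the top 1.93% of the myotube list. The lists differ in length and scores are not scaled between them, so this places the pair within each list and measures no change.

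MyoG peaks lay where MyoD peaks lay. All 15 overlapped a MyoD peak of myotubes, against 77.6% of the whole MyoG list, and 13 of the 20 MyoD peaks overlapped a MyoG peak, 65.0% against 66.9% of the whole MyoD list. The highest MyoG score, 1360, was at -10.4 kb, where no MyoD peak was called in myoblasts, followed by 1147 at -26.2 kb and 1139 at -23.1 kb. These 3 stood in the top 3.18% of the MyoG list. The 2 wide MyoD peaks at -61.1 and -25.8 kb each held 2 MyoG peaks. Among the 7 sites without MyoG, the highest MyoD score was 224, at -36.3 kb.

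The DRR window, taken as 3 to 7 kb before the start, held 1 MyoD peak and 1 MyoG peak, both in myotubes. MyoG was profiled in myotubes only. The MyoD peak ran from 53626192 to 53627045 (-5.23 kb, score 499) and the MyoG peak from 53626332 to 53627001 (-5.18 kb, score 258). In the myotube lists 22.2% of MyoD peaks and 27.7% of MyoG peaks scored as high. No MyoD peak and no H3K4me1 domain was called in this window in myoblasts, where the nearest upstream domain ended 7.04 kb before the start, just outside the window. In myotubes 1 domain covered the window whole, with ChIP over control of 3.64.

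The core enhancer window, 16 to 24 kb before the start, held 1 MyoD peak in each stage and 1 MyoG peak, all at 1 site. The myoblast MyoD peak ran from 53608037 to 53609280 (score 904), the myotube peak from 53608043 to 53609506 (score 2435) and the MyoG peak from 53608103 to 53609403 (score 1139). H3K4me1 covered the site at both stages. The nominal 20 kb position itself lay in a domain in myotubes alone, from -20.4 to -17.6 kb (ChIP over control 2.82), since the myoblast domain ended at -21.8 kb. The site lies 22.3 kb or more before the start, near the far edge of the window, and a window of 18 to 22 kb held no peak of either factor. Whether it is the core enhancer itself cannot be told from position alone.

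The other strong sites fell in neither window. At -34.8 kb and -25.8 kb, peaks of MyoD at both stages and of MyoG overlapped, and these sites carried the highest MyoD scores of the region in myoblasts, 1473 and 1218. Within 1 kb of the gene start, the promoter, a MyoD peak (53631237 to 53632024, score 409) and a MyoG peak (53631487 to 53632150, score 92.5) were called in myotubes. No MyoD peak was called there in myoblasts, where MyoG was not profiled. A further MyoD peak of low score (108) began 169 bp past the gene end in myotubes.

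H3K4me1 domains around Myod1 were more numerous and longer in the myotube list. Their median width was 2600 bp in myoblasts and 5000 bp in myotubes, beside 2200 and 2400 bp over the whole lists. The 7 myoblast domains covered 28.8 kb and held 1312 ChIP reads (exact 95% Poisson interval 1242 to 1385), and the 13 myotube domains covered 89.6 kb and held 3592 (3475 to 3711). Within the called sequence this came to 45.6 ChIP reads per kb in myoblasts and 40.1 in myotubes. Summed over domains, ChIP over control was 2.64 (exact 95% interval 2.37 to 2.96, counting error only) in myoblasts and 3.91 (3.63 to 4.21) in myotubes. The median fold of the whole list was 2.32 in myoblasts and 2.70 in myotubes. These sums are over different sequence in each stage, so they describe what was called and measure no change in enrichment. Upstream of the start 25.2 kb was covered in myoblasts and 71.6 kb in myotubes, and downstream 3.60 kb and 18.0 kb.

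Of the 7 myoblast domains, 6 overlapped a myotube domain, against 71.9% of the whole list; the exception was a domain of 31 ChIP reads at 62.5 kb downstream, which shares 274 of its 1000 bp with the end of Kcnc1. Of the 13 myotube domains 4 overlapped a myoblast domain (30.8%), against 68.3% of the whole list, and 9 did not. Domains without a myoblast partner included 4 of the 8 upstream ones between -92.9 and -49.1 kb, of which 3 reached into Otog, and 4 of the 5 downstream ones, of which 3 touched Kcnc1. The upstream domain at -19.0 kb was also without one.

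The widest domain of the region, 18.4 kb in myotubes from -39.8 to -21.4 kb, spanned 3 myoblast domains of 8.20, 1.40 and 6 kb. It held 7 sites, among them those at -34.8, -25.8 and -23.1 kb. Its ChIP over control was 5.24 (4.49 to 6.15) in myotubes, and the 3 myoblast domains together, over 15.6 kb, gave 2.95 (2.57 to 3.40). ChIP reads per kb stood in the other order, at 55.4 in myotubes and 59.1 in myoblasts. Of these 3, the one from -27.8 to -21.8 kb, which covers the site in the core enhancer window, stood highest at 3.85, and 6.53% of all myoblast domains reached that fold.

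Nearer the gene, a myotube domain of 16.0 kb from -16.4 to -0.44 kb overlapped a myoblast domain of 8.20 kb, with ChIP over control of 3.64 (3.08 to 4.32) against 1.92 (1.51 to 2.45). The stretch around -60 kb had an 11.4 kb domain in myotubes at 5.27 (4.32 to 6.47) and a 1.40 kb domain in myoblasts at 1.76 (1.02 to 3.12), made of 43 ChIP reads. By contrast, a domain that began 1.96 kb after the gene start and ran past its end was alike in length at both stages, at 2.60 (1.69 to 4.11) in myoblasts and 2.40 (1.61 to 3.65) in myotubes. Neither list had a domain over the start itself.

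**Figure D2:**
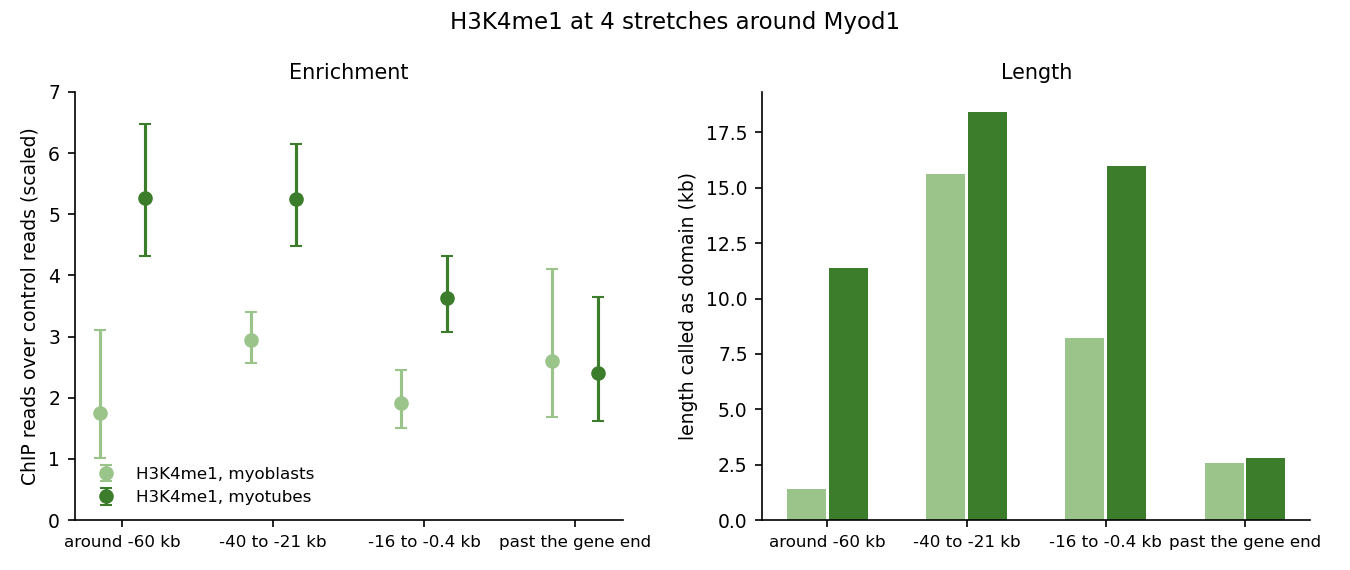
H3K4me1 at the 4 myotube domains of the region that overlap a myoblast domain, 1 library a stage. The left panel gives ChIP reads over control reads, scaled as the authors did, with exact 95% intervals for counting error, and the right panel the length called as domain (kb); stretches were chosen as myotube domains, which favours length in myotubes. The ratio within the called sequence is higher for myotubes at the 3 upstream stretches and 2.60 and 2.40 past the gene end; since the called sequence differs between stages, the panels measure no change in enrichment.

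Of the 20 MyoD and MyoG sites, 11 touched an H3K4me1 domain in myoblasts and 19 in myotubes. The exception was the weak site at 17.0 kb downstream. Of the 20 MyoD peaks of myotubes 11 touched a myoblast domain (55%), against 61.6% of the whole list, and 19 a myotube domain (95%), against 85.0%. One of the 11, at -59.3 kb, shared 8 bp with its myoblast domain, and the site over the gene start shared 164 bp with its myotube domain. Among the 14 sites without a MyoD peak in myoblasts, 5 touched a myoblast domain, 8 touched a domain in myotubes alone and 1 touched none. Over all 26173 MyoD peaks of myotubes without a myoblast MyoD peak, these shares were 48.4%, 35.9% and 15.7%, beside 35.7%, 57.1% and 7.14% of the 14. The site at -10.5 kb belonged to the 5 and the DRR site and the gene start to the 8.

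Set beside other gene loci, the neighbourhood of Myod1 was dense in peaks of both factors but not in domain number. The 20568 loci of the tables had a median of 5 MyoD peaks in myotubes within 100 kb, and 4.44% of them had as many as the 20 of Myod1. For MyoG 8.90% of loci had 15 or more, and for MyoD in myoblasts 14.4% had 6 or more. For H3K4me1, 66.1% of loci had at least the 7 domains of Myod1 in myoblasts and 43.6% at least its 13 in myotubes. Windows of neighbouring genes overlap and longer loci have wider windows, so the loci are not independent points.

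Within the MyoD family, peak number differed by gene. Myog had 8 MyoD peaks in myoblasts, 30 in myotubes and 26 MyoG peaks within 100 kb, more than Myod1 in each list. Myf5, which like MyoD commits cells to muscle, shares its window largely with Myf6, and both had 2, 3 and 4 peaks in turn, equal to the median locus for MyoD in myoblasts and for MyoG and under it for MyoD in myotubes. H3K4me1 domains in myotubes numbered 17 at Myog, 14 at Myf5 and 13 at Myod1.

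**Figure D3:**
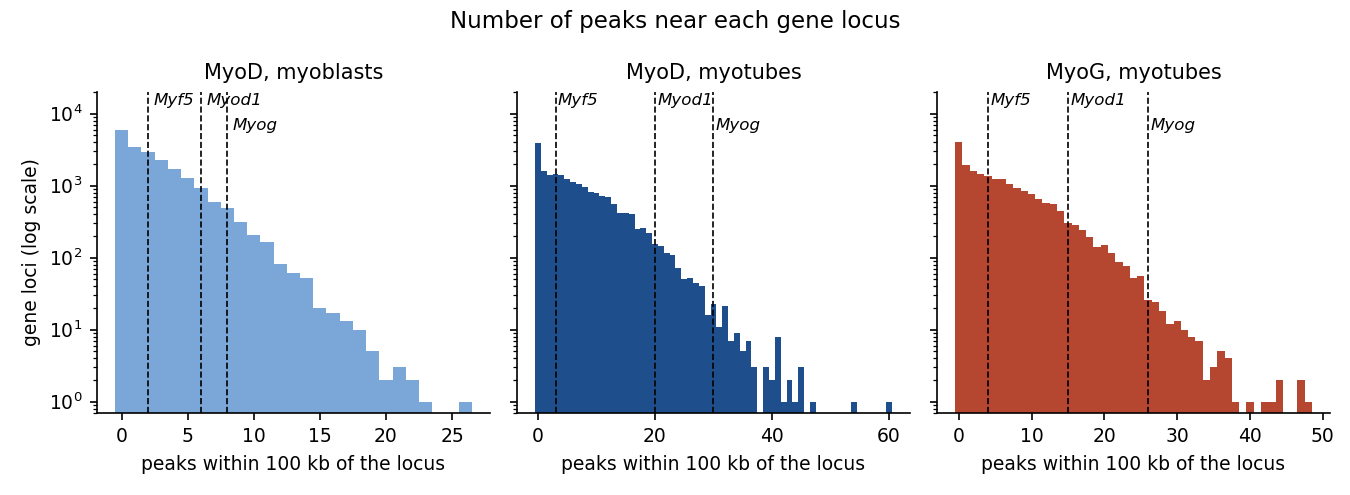
Number of gene loci (log scale) by the number of peaks within 100 kb, for MyoD in myoblasts, MyoD in myotubes and MyoG in myotubes, 1 library each. Dashed lines mark Myf5, Myod1 and Myog: in myotubes Myod1 stands at 20 MyoD and 15 MyoG peaks, between Myf5 (3 and 4) and Myog (30 and 26).

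Myod1 RNA was measured as FPKM, fragments per kilobase scaled to the library, which was deposited per coding sequence, in 1 row of each table. In the RNAi experiment Myod1 stood at 33.1 FPKM in DRRi and 37.7 in GFPi. In the overexpression experiment it stood at 65.6 FPKM in pHAN_DRR1.2 and 68.9 in pHAN_GFP. The treated library was the lower one in both, by a small margin: the log2 change of FPKM with a pseudocount of 1 was -0.18 and -0.070. For Myod1 the authors' deposited table of each experiment gave a p-value of 0.535 and of 0.684, and a q-value of 1.00 both times. Each condition had 1 library, so the deposited p-values and q-values here and below hold no spread between replicate cultures. The 2 tables were normalized separately, so the higher levels of the second are not compared with those of the first. Changes of 1.5-fold or 2-fold are counted on the same log2 scale, over genes whose mean was at least 1 FPKM. In DRRi 4.66% of 10577 genes stood 1.5-fold or more above GFPi and 3.50% below, and at 2-fold 0.898% above and 0.804% below. In pHAN_DRR1.2 the shares of 10699 genes were 1.38% and 0.654% at 1.5-fold, and 0.318% and 0.0841% at 2-fold. Myod1 was in none of these groups.

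By level, Myod1 was among the better expressed genes of each library. Of the genes counted in its table, 21.5% stood at or above it in DRRi, 18.8% in GFPi, 9.74% in pHAN_DRR1.2 and 8.95% in pHAN_GFP. The 5 genes nearest to it over the 4 libraries, by Euclidean distance of log2(FPKM + 1), were Tmem66 (0.209), S100a13 (0.226), Copz2 (0.285), Hes6 (0.298) and Olfml2b (0.309). Hes6 stood at 29.5 FPKM in DRRi, 35.4 in GFPi, 59.5 in pHAN_DRR1.2 and 60.3 in pHAN_GFP.

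Neighbouring coding genes were weakly expressed or silent. Otog was between 0.0232 and 0.286 FPKM and Kcnc1 between 0.00780 and 0.0884 over the 4 libraries. Sergef, which overlapped no MyoD or MyoG peak of the region, measured 5.85 FPKM in DRRi and 3.45 in GFPi (log2 change 0.62, past 1.5-fold) and at 3.74 in pHAN_DRR1.2 against 4.00 in pHAN_GFP (-0.08). For Sergef the authors' deposited table gave a q-value of 0.952 and 1.00. Among the coding genes measured within 100 kb, Myod1 was thus the only 1 above 10 FPKM in any library.

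Of the other MyoD family genes, Myog alone was past 1.5-fold in either table. Myog measured 2.61 FPKM in DRRi and 10.2 in GFPi (log2 change -1.64), and 65.8 in pHAN_DRR1.2 against 26.3 in pHAN_GFP (1.29). Myf5 was at 18.4 against 15.1 FPKM in the RNAi table (0.27) and at 10.7 against 8.75 in the overexpression table (0.26). Myf6, a family member of later muscle, lay between 0.191 and 0.238 FPKM. On this scale per length, Myod1 was the highest of the 4 in DRRi, GFPi and pHAN_GFP, and in pHAN_DRR1.2 Myog and Myod1 were at 65.8 and 65.6. Myog had in the authors' deposited table a q-value of 0.00848 in the RNAi comparison and 1.38e-08 in the overexpression comparison, and Myf5 had 1.00 in both.

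**Figure D4:**
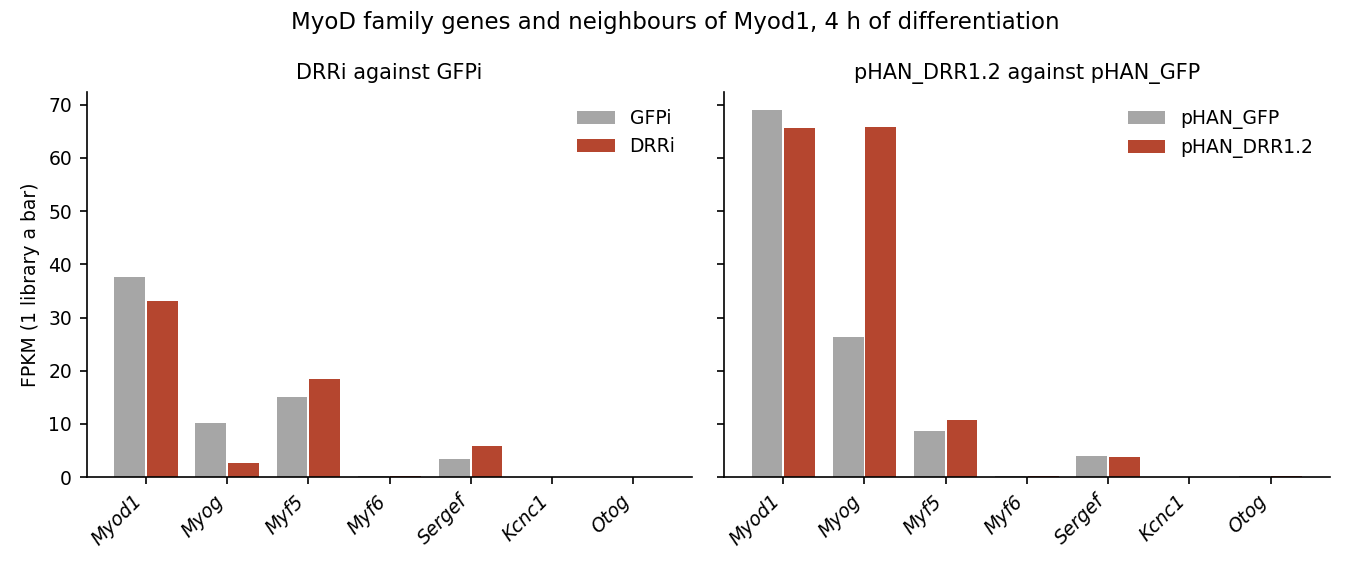
FPKM of the 4 MyoD family genes and the 3 other genes within 100 kb of Myod1, 1 library a bar, with the RNAi table at left and the overexpression table at right. The Myod1 bars differ little within a table (33.1 and 37.7, 65.6 and 68.9), while Myog is lower in DRRi and higher in pHAN_DRR1.2.

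Among genes that act before MyoD, those past 1.5-fold on the log2 scale with a pseudocount of 1 were all lower in DRRi. Of 15 upstream regulators listed, 11 reached a mean of 1 FPKM in each table. In DRRi 2 were 1.5-fold or more lower (18.2%, beside 3.50% of all genes) and 0 higher: Six4, a homeobox factor, at 8.16 against 15.8 FPKM (-0.88), and Eya4, a cofactor of Six4 and its relatives, at 12.1 against 22.3 (-0.83). Foxo3 was higher in DRRi, at 9.37 against 6.22 FPKM (0.52), just short of 1.5-fold on that scale. In pHAN_DRR1.2 none of the 11 passed in either direction, beside 1.38% higher and 0.654% lower of all genes. Pax7, a marker of muscle stem cells, was at 14.2 against 14.4 FPKM in the RNAi table and at 12.3 against 17.1 in the other (-0.44). At a q-value under 0.05 the authors' deposited table called none of these regulators in either comparison, with 12 tested in the RNAi table and 13 in the other. Of all genes with a tested coding sequence it called 0.729% of 11655 higher and 0.609% lower in DRRi, and 1.01% of 11798 higher and 0.627% lower in pHAN_DRR1.2.

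Partners and cofactors of MyoD were also mostly within 1.5-fold. The E protein genes Tcf3, Tcf4 and Tcf12 had log2 changes between -0.23 and 0.27 over both tables. A single coding sequence of Tcf3 was called higher in pHAN_DRR1.2 in the authors' deposited table (10.5 against 0.961 FPKM, q 0.000140), while the sum over the coding sequences of Tcf3 was at 26.3 against 21.7. Of 14 coactivators and chromatin partners, 1 passed 1.5-fold in DRRi, the arginine methyltransferase gene Carm1 at 45.03 against 24.1 FPKM (0.88), and none in pHAN_DRR1.2. That is 7.14% higher in DRRi, beside 4.66% of all genes. The authors' deposited table called none of the 12 it tested and gave no test for Ddx17 and Smarca4.

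Among 18 inhibitors of MyoD, 13 were measured at a mean of 1 FPKM in the RNAi table and 15 in the overexpression table. Heyl, an effector of Notch, measured 1.33 FPKM in DRRi and 7.23 in GFPi (-1.82), with a q-value of 5.63e-06 in the authors' deposited table. Bhlhe41 was at 11.2 against 18.6 (-0.69). These 2 were 15.4% of the 13, beside 3.50% of all genes. No member was 1.5-fold higher in DRRi, beside 4.66% of all genes, and none of the 15 passed in either direction in pHAN_DRR1.2, beside 1.38% higher and 0.654% lower of all genes. Id1, a helix-loop-helix protein that binds E proteins and keeps them from MyoD, was at 13.2 against 8.47 FPKM in the RNAi table and at 15.7 against 11.7 in the other (0.58 and 0.40), just short of 1.5-fold on the log2 scale in the first.

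Downstream of MyoD the picture was different. Of 25 target genes measured at a mean of 1 FPKM in the RNAi table, 15 were 1.5-fold or more lower in DRRi and 1 was higher, beside 3.50% and 4.66% of all genes, with a median log2 change of -0.78 against 0.02 over all genes. Chrnd, a subunit of the acetylcholine receptor, was at 3.74 against 17.5 FPKM (-1.96), Mylpf, a light chain of fast myosin, at 1.496 against 7.34 (-1.74) and Rbm24, an RNA-binding protein of muscle, at 1.66 against 7.25 (-1.63), beside Myog. The higher one was Cdkn1a, an inhibitor of the cell cycle, at 146 against 71.1 FPKM (1.03). The authors' deposited table called 7 of 28 tested targets lower and 2 higher, beside 0.609% and 0.729% of all tested genes. The 2 were Cdkn1a and a coding sequence of Cdkn1c, while the sum over coding sequences of Cdkn1c had a log2 change of -0.28.

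In pHAN_DRR1.2, 10 of 29 measured targets were 1.5-fold or more higher and 2 lower, beside 1.38% and 0.654% of all genes, with a median of 0.40 against 0.02. The highest were Mylpf at 89.2 against 20.1 FPKM (2.10), the myosin light chain gene Myl1 at 32.9 against 8.97 (1.77), the embryonic myosin gene Myh3 at 4.79 against 1.01 (1.52) and the troponin gene Tnni1 at 27.2 against 9.20 (1.47). The 2 lower ones were Rbm24, at 7.11 against 12.6 FPKM (-0.74), and Fgfr4, at 15.4 against 25.8 (-0.71). Both were lower in DRRi too. The authors' deposited table called 9 of 30 tested targets higher and 2 lower, beside 1.01% and 0.627% of all tested genes. The target list was chosen with these results known, so its counts are a description and not independent support.

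The libraries had the markers of muscle cells. All 7 muscle markers, with Myod1, Myf5 and Myog among them, reached a mean of 1 FPKM in both tables, and their summed level was 409 FPKM in DRRi, 481 in GFPi, 1026 in pHAN_DRR1.2 and 826 in pHAN_GFP. The 3 adipocyte and 3 endothelial markers summed to at most 0.445 and 0.102 FPKM in any library, and the blood marker Ptprc stood at 0.0164 at most. The blood marker Cd68, of macrophages, was at 1.70 FPKM in DRRi, 2.52 in GFPi, 2.17 in pHAN_DRR1.2 and 1.58 in pHAN_GFP. Of the neural markers Snap25 was listed at 0 in all 4 libraries, Elavl3 was at most 0.0414 and Tubb3, which other cells also express, was the exception. Tubb3 stood at 35.5 FPKM in DRRi, 24.5 in GFPi, 91.0 in pHAN_DRR1.2 and 51.0 in pHAN_GFP, past 1.5-fold in the overexpression table (0.82), where the authors' deposited table also called it higher. Its part in the results above was not tested.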

How the data were processed

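C2C12 ChIP-seq of 5 samples and polyA RNA-seq of 4 was used, and 2 ribosome-depleted RNA samples were not analysed here. The authors deposited FPKM, p-values and q-values per coding sequence in 2 tables, per the file headers, each normalized on its own. Of tools, the submitters' processing notes give TopHat, SICER and bedtools with no version, and mm9 as the build. Track lines in the peak files name MACS, and each peak has a score deposited by the authors whose definition is not given in the sources used here; whether the 2 runs named in the labels were pooled is not given either. H3K4me1 domains carry deposited counts of ChIP and control reads, p-values, and a ratio (fold), on windows of 200 bp. The deposited fold is ChIP reads over control reads with a scale of 0.858 in myoblast and 0.983 in myotube domains, wherever control reads were above 0. Whole library depths are not given in the sources used here.

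FPKM were summed over the coding sequences of a symbol. Each table belongs to 2 samples per the labels; 1 condition carries the name GFP and the other was therefore read as DRRi or pHAN_DRR1.2. Log2 changes use a pseudocount of 1, which understates low genes, and counts use a mean of 1 FPKM or more. A region is a member if its near edge is within 100 kb of the locus. Coordinates count from 1. Intervals are exact Poisson for reads and exact binomial (Clopper-Pearson) for ratios, at 95%, for counting error only. Named genes were Myod1, the loci within 100 kb, the MyoD family, up to 4 genes past 1.5-fold per list, and the 5 nearest in level; others named were chosen after their values were seen. The members and lists were chosen with earlier results of these data known. Python 3.11.15, pandas 2.3.3 and scipy 1.17.1 were used. Gene counting was checked on changes put into expression values far above the filter, and peak counting on deposited intervals. Other pseudocounts, filters, thresholds, windows and overlaps were tried.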

Additional observations from a re-analysis of the deposited data

How the results depend on the processing

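With no replicates, values were set against limits of 1.5 times for counts and shares and 2 decimals for log2 changes; of 76 alternative values 45 kept within them and 31 did not, and the cause was not tested. No paired analysis was possible because each group held 1 sample. No direction of the Myod1 change was reversed: in DRRi it was -0.19 with a pseudocount of 0.1 and -0.20 centred on the median of all genes, and in pHAN_DRR1.2 -0.090 centred. Genes 2-fold apart in DRRi, 95 higher and 85 lower, became 180 and 132 with a pseudocount of 0.1 and 60 and 53 at a mean of 5 FPKM. In pHAN_DRR1.2, 34 and 9 became 67 and 30, and 21 and 5. Of the 83 listed MyoD pathway genes, 68 reached a mean of 1 FPKM in the RNAi table and 74 in the other. Among the 68, 19 were 1.5-fold or more lower in DRRi and 2 higher, beside 3.50% and 4.66% of all genes. At a mean of 5 FPKM, which keeps fewer genes, 10 were lower and 2 higher. Among the 74, 2 were lower in pHAN_DRR1.2 and 10 higher, beside 0.654% and 1.38% of all genes. With a pseudocount of 0.1, 4 were lower and 11 higher. Shares of all genes at these other settings are not given here. The pathway genes include the targets chosen with these results known.

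At a score of 100 or more, or a fold of 5 or more, the region kept 3 MyoD peaks in myoblasts, 0 myoblast domains of H3K4me1 and 3 myotube domains. The share of loci with as many regions as Myod1 then became 28.4% for MyoD in myoblasts and 1.63% in myotubes. It was 4.51% for MyoG and 4.01% for H3K4me1 in myotubes. For H3K4me1 in myoblasts the share is 100% by definition, as Myod1 had 0 domains, and 87.1% of loci had none. The same thresholds were also applied to the stage comparison, after seeing the data. Then 3 of 3 MyoD peaks of myoblasts overlapped one of myotubes (6 before), beside 74.4% of the whole list. Of 19 MyoD peaks of myotubes 3 overlapped one of myoblasts, beside 33.5% of the whole list. Of 3 myotube domains 0 overlapped a myoblast domain (4 before), beside 0.924% of the whole list. No myoblast domain was left near Myod1. At the authors' threshold but within 50 kb, 8 myotube domains were kept and the share of loci for MyoD in myotubes was 2.49%. Among loci of 10 kb or less, an alternative chosen after seeing the data, it was 2.44% for MyoD in myotubes and 5.79% for MyoG. The narrower core enhancer window held 0 MyoD peaks in myoblasts, 0 in myotubes and 0 MyoG peaks. Overlap of at least 50% of the shorter interval changed no count of peaks or domains shared between stages or factors. It put 18 of the 20 MyoD peaks of myotubes in a myotube domain (90%), beside 82.0% of the whole list. In a myoblast domain it put 10 (50%), beside 57.8% of the whole list.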
